A study of Mus musculus with 11 samples.

Results

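Angiotensinogen (Agt) and the type 2 angiotensin II receptor (Agtr2) were followed across the 11 arrays of a study of TG1306/1R mice, a transgenic line named in the study's title for cardiac angiotensin II overexpression. Both genes were chosen by symbol, and they are 2 of the 8146 genes with a spot on the slides. They had 4 spots, 2 each, and 3 of these carried values. The study compared the ventricles of 12 male mice of C57/BL6 strain, about 60 weeks old, in 3 groups of 4. Dil mice were heterozygous for the transgene (+/-) and had dilated hearts, Hyp mice were heterozygous (+/-) with concentric hypertrophy, and WT mice were littermates negative for it (-/-). No treatment was given to any of them. Each array held the labelled cDNA of 2 mice of the same number, one in Cy5 and one in Cy3. The mice of one number are called a set here. There were 3 arrays of Dil with WT, 4 of Hyp with WT and 4 of Dil with Hyp.

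Angiotensinogen is a secreted serpin and the only known precursor of the angiotensin peptides. Renin cuts angiotensin I from it, angiotensin-converting enzyme turns that into angiotensin II, and aminopeptidases and other peptidases trim the product further. Angiotensin II acts mainly through the type 1 receptor, which couples to Gq and drives vasoconstriction, aldosterone release and growth of cardiac muscle cells. The type 2 receptor, the product of Agtr2, is abundant in the fetus and scarce in the healthy adult heart, and many of its reported actions oppose those of the type 1 receptor. The liver is the main source of circulating angiotensinogen, and the heart itself makes little. In published descriptions of the TG1306/1R line the transgene is an angiotensinogen cDNA of rat under a cardiac myosin heavy chain promoter. The labels give neither its sequence nor its promoter. Signal from the transgene and from the mouse's own Agt gene cannot be told apart at a cDNA spot, and both carrier groups come from 1 line.

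The hearts had been assigned to Hyp or Dil by genotype, chamber shape, cardiac weight index and hypertrophic marker expression, so none of these is a result here. The deposited values have no stated log base or direction. They were taken as log2 of Cy5 over Cy3, which makes Nppb, a natriuretic peptide gene that marks hypertrophy, higher in both carrier groups. With the opposite direction every sign below turns, and because a higher Agt in carriers is what the line was made for, its sign is not independent of that choice. Ratios hold no levels, so the tissue could not be checked by the amount of its marker transcripts. Of 12 cardiomyocyte markers, Ryr2 and Actn2 were measured, and no atrial marker was. Of 9 lists of cell type markers 8 had a measured gene, and none of these 26 genes passed the limma test in any comparison, with 6 of them (23.1%) at an unadjusted p under 0.05 in Dil minus WT, against 16.2% of all features. For hepatocytes, the cells that make most angiotensinogen in the body, 4 of 7 markers were measured, and in Dil minus WT they were 0.40 ± 0.12 for Ttr, -0.03 ± 0.12 for Alb, -0.07 ± 0.10 for Apoa1 and 0.05 ± 0.18 log2 units for Trf (SE). Ttr was positive in all 4 sets, at 0.21, 0.21, 0.81 and 0.34, with an unadjusted limma p of 0.00587 and an adjusted p of 0.115, and its part in the Agt result was not tested. Each array had 17207 values, with medians between -0.0114 and 0.0068.

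The mouse Agt gene lies on chromosome 8 at 124556587 to 124569706, on the minus strand of GRCm38.p6, and Agtr2 on chromosome X at 21484624 to 21488833, on the plus strand. The sequences of the spotted clones were not used here. The 250 bases upstream of each gene's start are printed below from RefSeq (GRCm38.p6) because they belong to the mouse's own 2 genes, whose products the spots are named for. A transgene under a foreign promoter does not carry the Agt stretch. Capitals mark a TATA-type motif found by searching both strands for TATAAA in Agt and TATATA in Agtr2. They start 30 and 28 bases before the gene's start. TATAAA occurs in 12.4% and TATATA in 5.25% of 32851 mouse promoters of the same length, so neither is particular to these genes. The Agt stretch is chr8:124569707-124569956 (minus strand), and the Agtr2 stretch is chrX:21484374-21484623 (plus strand).
Agt: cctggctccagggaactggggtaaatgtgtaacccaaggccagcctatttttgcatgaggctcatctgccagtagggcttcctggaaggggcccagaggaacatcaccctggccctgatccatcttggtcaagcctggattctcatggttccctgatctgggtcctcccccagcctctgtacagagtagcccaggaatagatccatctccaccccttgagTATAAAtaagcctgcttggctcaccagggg
Agtr2: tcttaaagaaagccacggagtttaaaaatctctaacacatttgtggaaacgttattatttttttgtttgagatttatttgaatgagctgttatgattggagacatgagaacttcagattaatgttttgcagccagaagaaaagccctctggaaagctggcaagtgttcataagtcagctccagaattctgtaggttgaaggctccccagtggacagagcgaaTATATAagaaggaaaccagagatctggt

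In dilated hearts Agt was among the most increased transcripts on the slide. The 3 arrays of Dil with WT gave log2 ratios of 2.61 in set 1, 2.28 in set 3 and 2.46 in set 4, a mean of 2.45 ± 0.17 (SD, n = 3). These correspond to folds of 6.10, 4.86 and 5.51. As measured, all 3 lay close together, although the arrays of sets 3 and 4 had the widest spread of all 11. Their scaled median absolute deviation was 0.335 and 0.354, against 0.172 in set 1. The dye term fitted for Agt, 0.46 ± 0.22 (SE) in favour of Cy5, was not removed from these ratios. Dil was in Cy5 in sets 1 and 3 and in Cy3 in set 4. Less that term the first 2 ratios would be lower and that of set 4 higher, so they would lie further apart. Among 12480 spots of a single gene, the Agt spot held rank 1, 3 and 14 from the top on them.

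In hypertrophic hearts the 3 arrays with an Agt value did not agree. The log2 ratio of Hyp over WT was 1.83 in set 2, -0.24 in set 3 and 3.60 in set 4, a mean of 1.73 ± 1.92 (SD, n = 3). On the linear scale Agt was 3.56-fold higher in Hyp2 than in WT2, 0.848-fold in Hyp3 against WT3, and 12.1-fold higher in Hyp4 than in WT4. The dye term of Agt, 0.46 ± 0.22 (SE) in favour of Cy5, was not removed from these ratios either. Hyp was in Cy3 in sets 2 and 3 and in Cy5 in set 4. Less that term the ratios of sets 2 and 3 would be higher, with set 3 turning positive, and that of set 4 lower. They would thus lie closer together. The spot was the highest of 12480 in set 4, the 4th in set 2 and the 11674th in set 3. In set 1 the array of Hyp1 with WT1 has no Agt value, because its values are displaced in the deposited table and the Agt spot fell among the 21.7% left without one after they were moved back.

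Between the carrier groups the Agt ratio took both signs. Dil over Hyp was -0.86 in set 1, 0.64 in set 2, 0.58 in set 3 and -0.64 in set 4 on the log2 scale, a mean of -0.07 ± 0.79 (SD, n = 4). As measured, Hyp1 and Hyp4 thus had more Agt signal than their dilated partners, by 1.81-fold and 1.56-fold, and Hyp2 and Hyp3 had less. The dye term of 0.46 in favour of Cy5 was not removed from these values. Hyp was in Cy5 in sets 1 and 3, and Dil in sets 2 and 4. Less that term the ratios of sets 1 and 3 would be higher and those of sets 2 and 4 lower. Their signs would stay, but the folds would change.

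**Figure D1:**
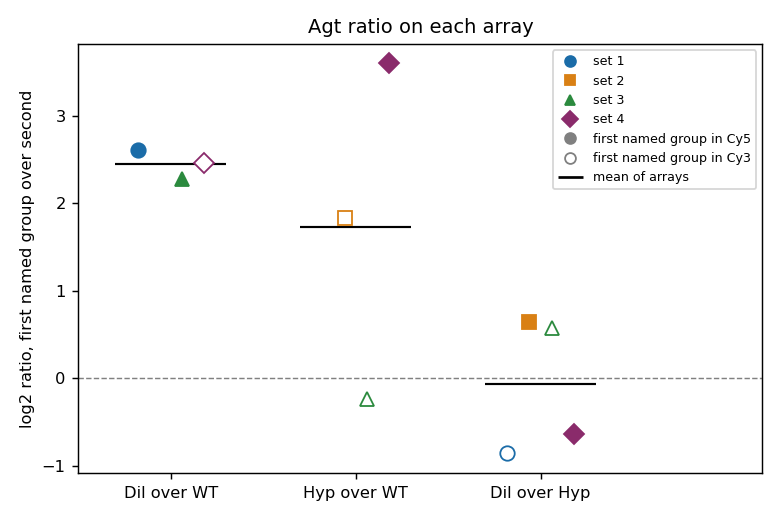
Agt log2 ratio (vertical axis) on each of the 10 arrays with a value, by comparison (horizontal axis), with 1 symbol per set, filled where the first named group was in Cy5 and open where it was in Cy3, and a line at the mean of the arrays. The 3 Dil over WT ratios lie between 2.28 and 2.61, while those of Hyp over WT spread between -0.24 and 3.60. The dye term was not removed from these ratios.

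Taken over the arrays of a set together by least squares, Agt was higher in the carrier than in the WT mouse in all 4 sets. Dil minus WT was 2.61, 2.48, 1.63 and 2.63 log2 units in sets 1 to 4, and Hyp minus WT was 3.47, 1.83, 0.41 and 3.43. The dye was not removed from these values, and less the dye term fitted for Agt the Dil minus WT value of set 1 would be lower. In set 2 the array of Dil2 with WT2 was not analysed here, and its Dil value runs through Hyp2. The Hyp value of set 1 likewise runs through Dil1. The lowest value in both comparisons came from set 3, where Dil stood further from WT than Hyp did. With 4 sets the exact two-sided sign-flip permutation test cannot give a p below 0.125, which is the value it gave for Dil minus WT and for Hyp minus WT.

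The low value of set 3 rests on arrays that disagree. Hyp3 over WT3 was -0.24 when both were on 1 array, and 1.70 when read through Dil3. The gap of 1.94 log2 units between these is larger than that of 99.2% of the 12097 features in the same 3 arrays, whose median gap was 0.288. In set 4 the direct value was 3.60 and the indirect one 3.10, a gap of 0.50 that lies at the 71.5th percentile. The dye term fitted for Agt was 0.46 ± 0.22 (SE) in favour of Cy5. Less that term, Hyp minus WT becomes 2.55 in set 1 and 2.29 in set 2. In sets 3 and 4 the dye runs the same way round all 3 arrays, and less 3 dye terms the gap is 0.56 in set 3 and -0.88 in set 4. The term was estimated from the same arrays, so these gaps are not independent of it.

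Across all arrays, the Dil minus WT change of Agt was 2.15 ± 0.40 log2 units (SE), or 4.44-fold with a 95% interval of 2.39 to 8.28-fold, and it passed the test (limma adjusted p = 0.0311). In that comparison 260 of 12097 features, 2.15%, passed at an adjusted p under 0.05, 1% higher and 1.15% lower. Agt had the 2nd largest rise of 8106 genes, after Nppb, and the 5th largest of all 12097 features. It stood only at rank 104 of the genes by p. The call ends when the arrays are scaled to the same spread (1.62, limma adjusted p = 0.104) or when any 1 set is left out (limma adjusted p up to 0.203). It also ends when any 1 of 6 of the 11 arrays is left out, those of Dil with WT in sets 1, 3 and 4, of Hyp with WT in sets 2 and 4 and of Dil with Hyp in set 3. The 11 include the array of Hyp1 with WT1, which holds no Agt value and could change the call only through the other features.

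The Hyp minus WT difference of Agt was of the same size, 2.09 ± 0.40 log2 units (SE), or 4.26-fold with an interval of 2.29 to 7.93-fold. It was the largest positive difference of all 12097 features. Its unadjusted limma p was 0.000375, but the adjusted p was 0.871. No feature passed in Hyp minus WT (0%), and 533 of 12097 had an unadjusted limma p under 0.05. Without the array of WT3 with Hyp3 the difference was 2.54 log2 units and the limma adjusted p was 0.201.

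Dil and Hyp were not distinguishable in Agt. The Dil minus Hyp difference was 0.06 ± 0.38 log2 units (SE, limma adjusted p = 0.987). Its 95% interval of -0.79 to 0.91 covers folds of 0.579 to 1.88, so a difference within those bounds could not be seen with these arrays. In this comparison 0.165% of features passed, 0.141% higher and 0.0248% lower. With both carrier groups averaged, carriers minus WT was 2.12 ± 0.36 log2 units (SE), a 4.35-fold difference and the largest positive one of all 12097 features, with a limma adjusted p of 0.0654. A single feature, 0.00827%, passed there: Rcan1, which encodes a calcineurin regulator (1.06 ± 0.11 SE, limma adjusted p = 0.0102). Without the array of WT3 with Hyp3 the Agt value was 2.49 and passed (limma adjusted p = 0.0372), as it did without that of Dil4 with Hyp4 (2.11, limma adjusted p = 0.0458). The comparisons share the WT mice and are not independent of each other.

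**Figure D2:**
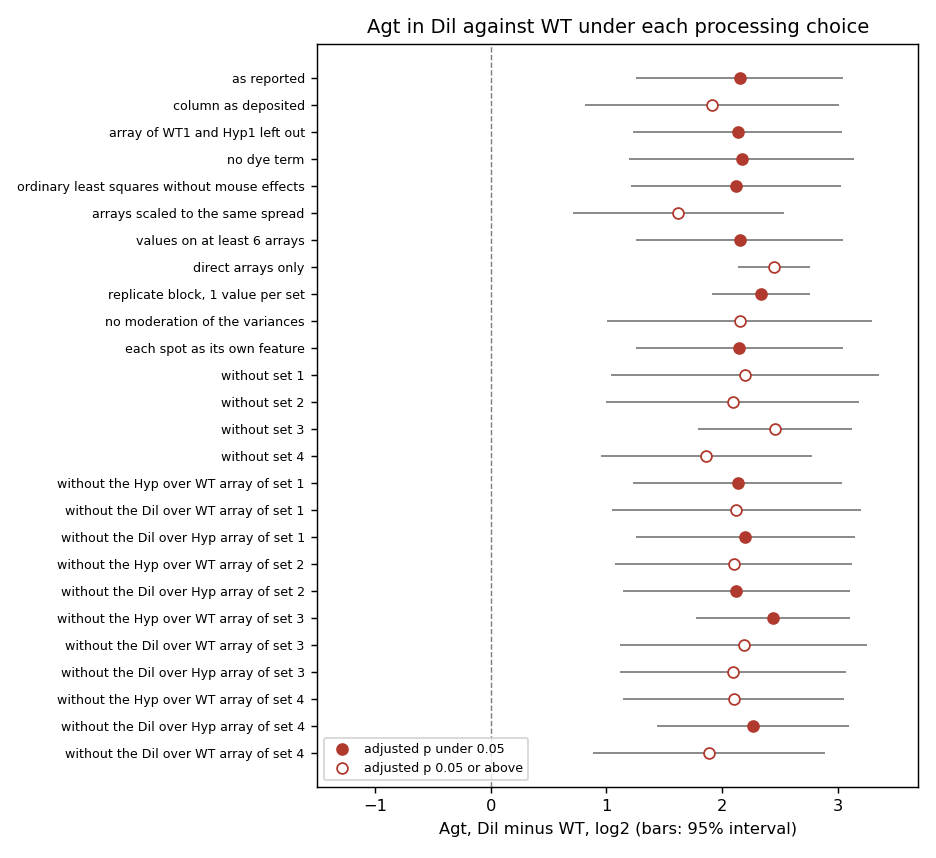
Agt in Dil minus WT in log2 units (horizontal axis) as reported, at the top, and under each of 25 other processing choices (vertical axis), with bars for the 95% interval and filled points where the adjusted p was under 0.05. All estimates lie between 1.62 and 2.46 and none of the intervals reaches 0, while 14 of the 25 points are open. Some of the 25 choices repeat a fit or remove no Agt value.

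For Agtr2, the receptor gene, no difference was detected in any comparison. Its 2 spots, in blocks 5 and 23 of the slide, both had values on all 11 arrays. For Dil over WT the mean of both spots was 0.13 in set 1, -0.02 in set 3 and 0.01 in set 4 on the log2 scale. For Hyp over WT it was -0.04, 0.01, 0.08 and 0.17 in sets 1 to 4. These all lie near 0, with Hyp4 over WT4 the highest. For Dil over Hyp it was -0.0025, -0.01, 0.11 and -0.11, again on both sides of 0. On 10 of the 11 arrays the single spots lay between -0.14 and 0.22.

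The exception was the array of Dil3 with WT3, where the spot in block 5 read 0.55 and the spot in block 23 read -0.60. This gap of 1.14 log2 units, the largest of the 11 for Agtr2, exceeded that of 97.9% of the pairs of spots of one gene, over 1870 genes with 2 spots. The pairs were pooled over all arrays, and this array had one of the widest spreads (scaled median absolute deviation 0.335). The share among pairs on this array alone was not computed. The mean of -0.02 on that array therefore averages 2 opposed values. Elsewhere the Agtr2 spots differed little in size, and their median gap was 0.11 against 0.17 over all such genes. They had the same sign on 6 of 11 arrays, where pairs of spots of one gene did so in 58.2% of cases.

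**Figure D3:**
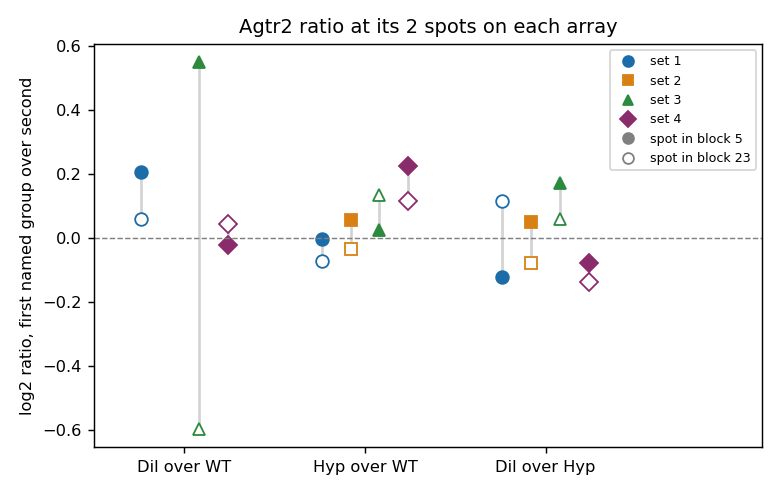
Agtr2 log2 ratio (vertical axis) at its 2 spots on each of the 11 arrays, by comparison (horizontal axis), filled for the spot in block 5 and open for the one in block 23, with a grey line joining both spots of an array. All points lie between -0.14 and 0.22 except the pair on the Dil over WT array of set 3, at 0.55 and -0.60.

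The fitted Agtr2 difference was 0.05 ± 0.06 log2 units in Dil minus WT (SE, limma adjusted p = 0.761). It was 0.05 ± 0.06 in Hyp minus WT (SE, limma adjusted p = 0.999) and -0.01 ± 0.06 in Dil minus Hyp (SE, limma adjusted p = 0.992). The 95% intervals ran from -0.08 to 0.17, from -0.07 to 0.17 and from -0.13 to 0.11. Their upper ends correspond to a 1.13-fold higher Agtr2 signal in Dil and in Hyp than in WT. They rest on the mean of spots that disagree: with the block 5 spot alone Dil minus WT was 0.16 with an upper end of 1.27-fold, with the block 23 spot alone it was -0.07, and with direct arrays only the upper end was 1.25-fold. The brightness of the spots was not analysed here, so the intervals cover the spread of the ratios only, and whether Agtr2 signal stood above background was not tested. Carriers minus WT was 0.05 ± 0.05 (SE, limma adjusted p = 0.773).

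The labels give each heart's cardiac weight index, the heart weight over body weight. It was 8.1, 7.8, 7.8 and 9.2 mg/g in Dil1 to Dil4, and 4.2, 4.5, 4.5 and 4.9 mg/g in WT1 to WT4. In Hyp1, Hyp2 and Hyp4 it was 5.8, 5.4 and 5.5 mg/g, and for Hyp3 the labels of its arrays give both 5.3 and 5.6 mg/g. No 2 groups overlapped, as the selection of the hearts required. The Dil hearts exceeded their WT partners by 3.9, 3.3, 3.3 and 4.3 mg/g in sets 1 to 4, and the Hyp hearts theirs by 1.6, 0.9, 0.95 and 0.6 mg/g.

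Agt followed the order of the index, Dil above Hyp above WT, in sets 2 and 3 and not in sets 1 and 4. In set 4, with the smallest excess of heart weight in Hyp (0.6 mg/g), Agt was 3.43 log2 units higher in Hyp4 than in WT4. In set 1 it was 3.47 higher in Hyp1 (2.55 less the dye term) at an excess of 1.6 mg/g. It was 1.83 higher in Hyp2 (2.29 less the dye term) at 0.9 mg/g. In Hyp3 it was 0.41 higher at 0.95 mg/g, a value from arrays that disagree by 1.94 log2 units. The Dil hearts, with index differences of 3.3 to 4.3 mg/g, had Agt differences of 1.63 to 2.63 log2 units, inside the range of the Hyp hearts. No correlation is given, since each comparison has 4 sets. Nppb in Hyp minus WT was 1.13, 1.28, 1.30 and 0.11 log2 units in sets 1 to 4, beside 3.47, 1.83, 0.41 and 3.43 for Agt. It was thus lowest in Hyp4, where Agt was near its highest, but much alike in sets 1 to 3, where Agt differed widely.

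**Figure D4:**
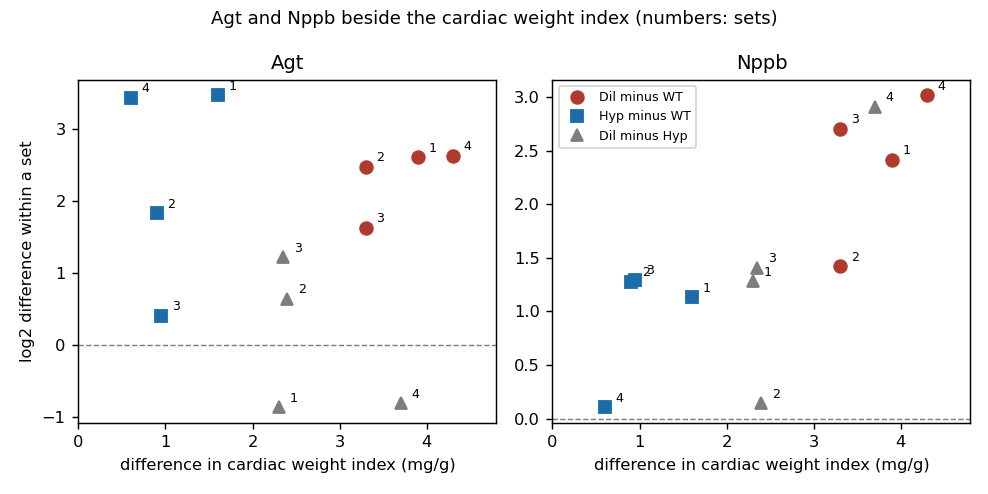
Log2 difference within a set of Agt (left) and of Nppb (right) on the vertical axis against the difference in cardiac weight index between the same mice in mg/g on the horizontal axis, with red circles for Dil minus WT, blue squares for Hyp minus WT, grey triangles for Dil minus Hyp and the set's number beside each point. For Agt, the Hyp minus WT points span 0.41 to 3.47 at index differences of 0.6 to 1.6 mg/g, and the Dil minus WT points lie between 1.63 and 2.63 at 3.3 to 4.3 mg/g.

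Of 29 genes of the renin-angiotensin system, 13 were measured. Agt and Aopep passed as higher in Dil minus WT and none passed as lower, where 2.15% of all features passed in either direction. The list holds Agt itself, whose call is the one given above. The median of the 13 was 0.17 log2 units against 0.00 over all features. Aopep, aminopeptidase O, removes amino-terminal residues from peptides and can turn angiotensin III into angiotensin IV. Its Dil over WT ratios were 0.59, 0.61 and 1.07 on the log2 scale in sets 1, 3 and 4, and its Hyp over WT ratios were 0.10, 0.13, 0.28 and 0.12 in sets 1 to 4. Every Dil ratio was above every Hyp ratio. It rose by 0.71 ± 0.08 log2 units in Dil minus WT (SE, limma adjusted p = 0.00633) and by 0.52 ± 0.08 in Dil minus Hyp (SE, limma adjusted p = 0.0342). It was the only gene of the 13 to pass in Dil minus Hyp, where 0.165% of all features passed. In Hyp minus WT none of the 13 passed, with a median of 0.02. Of the 13, 2 (15.4%) had an unadjusted limma p under 0.05 there, against 4.41% of all features. With the set 3 mice left out, neither Agt nor Aopep passed in Dil minus WT, and no other feature did either. Over all left-out arrays or sets 0 to 2 of the 13 passed, and 0 to 448 of all 12097 features.

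Among the other measured members none passed. Their Dil minus WT values, in log2 units with SE, took both signs. Ctsd, the lysosomal aspartic protease cathepsin D, which can release angiotensin I, had 0.53 ± 0.16 (SE, limma adjusted p = 0.130), with set 4 the highest of its sets at 1.14. Ctsa, cathepsin A, a carboxypeptidase, had 0.34 ± 0.15. Mme, neprilysin, which makes angiotensin 1-7, had -0.11 ± 0.06. The oligopeptidases included Thop1 at 0.20 ± 0.21, Nln at 0.08 ± 0.10 and Prep at 0.12 ± 0.06 log2 units (SE). Prcp, which removes the last residue of angiotensin II, had 0.08 ± 0.09, and Dpp3, a dipeptidyl peptidase that degrades it, had 0.23 ± 0.14. Anpep, aminopeptidase N, had -0.15 ± 0.11. Agtrap, which encodes a protein that binds the type 1 receptor and promotes its internalisation, had 0.17 ± 0.12. In Hyp minus WT all 11 genes other than Agt and Aopep lay between -0.12 and 0.14. Renin, both converting enzymes and the type 1 receptor genes were not measured here.

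**Figure D5:**
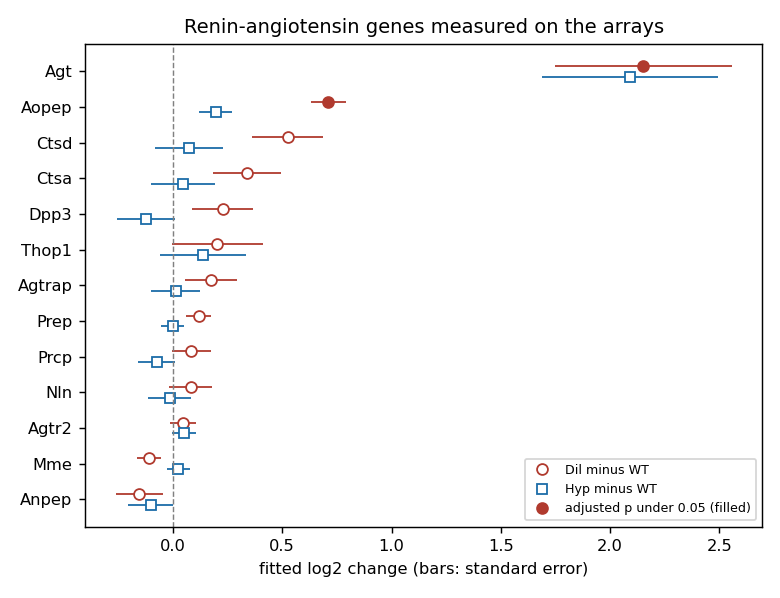
Fitted log2 change (horizontal axis, bars for the standard error) of the 13 measured renin-angiotensin genes (vertical axis) in Dil minus WT (red circles) and Hyp minus WT (blue squares), filled where the adjusted p was under 0.05. Agt stands at 2.15 and 2.09, Aopep at 0.71 and 0.19, and the other genes lie between -0.15 and 0.53.

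Some genes listed for type 1 receptor coupling or as angiotensin II targets passed in the dilated hearts, and most did not. Whether the receptors had a part in these changes was not tested. The lists were chosen with earlier results of these data known, so counts of their called genes are no independent evidence. Of 40 genes of type 1 receptor coupling, 28 were measured, and in Dil minus WT 2 rose and 3 fell, against 2.15% of all features called in either direction, with a median of 0.03 log2 units. Rcan1, a calcineurin regulator that is itself switched on by calcineurin, rose by 1.56 ± 0.13, and Prkcd, a protein kinase C, by 0.49 ± 0.10 (SE, limma adjusted p = 0.00102 and 0.0311). Rgs2, which shuts off Gq, fell by 0.93 ± 0.13, Nfatc4, a calcineurin-dependent transcription factor, by 0.57 ± 0.11 and Mapk14, the p38 alpha kinase, by 0.37 ± 0.08 (SE, limma adjusted p = 0.00967, 0.0311 and 0.0412). In Hyp minus WT none of the 28 passed, and 4 (14.3%) had an unadjusted limma p under 0.05, against 4.41% of all features. Of these genes Rcan1 was also higher in Dil than in Hyp (1.00 ± 0.12 SE, limma adjusted p = 0.0236), where 0.165% of all features passed. With the array of WT3 with Hyp3 left out, 2 of the 28 passed in Dil minus WT, and with the set 3 mice left out none did. The number of all features passing without that array is not given here, so the 2 cannot be compared with it. Over all left-out arrays or sets the count ran from 0 to 6, and that of all features from 0 to 448. With 1 value per set as a replicate block 1 of the 28 passed, with scaled arrays 2, and with direct arrays or without moderation 0. Of all 12097 features, 4 passed with the replicate block and 99 with scaled arrays. No feature at all passed without the set 3 mice, with direct arrays or without moderation.

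No partner of the type 2 receptor passed. Of 15 such genes 11 were measured, with a median of 0.10 in Dil minus WT and 0.07 in Hyp minus WT, and 1 of them (9.09%) had an unadjusted limma p under 0.05 in each of these, against 16.2% of all features in Dil minus WT and 4.41% in Hyp minus WT. The smallest p values in Dil minus WT were those of Erbb3, a receptor tyrosine kinase, at -0.24 ± 0.10 (SE, limma adjusted p = 0.257), and Gnai2, an inhibitory G protein subunit, at 0.44 ± 0.21 (SE, limma adjusted p = 0.324). Of 24 textbook target genes of angiotensin II, 16 were measured, and 3 passed in Dil minus WT, all higher, against 2.15% of all features; the median was 0.34 log2 units. One of the 3 is Nppb, which set the direction of the ratios and belongs to the kind of marker the hearts were chosen by, so its place in the count is no result. The others were Tgfb2, a transforming growth factor, and Fhl1, a LIM protein of the sarcomere. They stood at 1.36 ± 0.23 and 1.26 ± 0.20 log2 units (SE, limma adjusted p = 0.0198 and 0.0143). This list too was chosen with earlier results of these data known, so the count is not independent of them. In sets 1 to 4 Tgfb2 stood at 0.64, 0.50, 1.75 and 2.03 log2 units, and Fhl1 at 0.77, 0.61, 1.67 and 1.63. Both were highest in sets 3 and 4, whose Dil over WT arrays had the widest spread. None of the 16 passed without the set 3 mice, with 1 value per set as a replicate block, with direct arrays or without moderation. Without the set 4 mice or without their Dil over WT array 1 passed. Of all 12097 features, 4 passed with the replicate block and 12 without the set 4 mice. The number passing without the Dil over WT array of set 4 is not given here, so the list count for that choice cannot be compared with it. No feature at all passed without the set 3 mice, with direct arrays or without moderation. In Dil minus Hyp, where 0.165% of all features passed, Fhl1 passed (1.16 ± 0.19 SE, limma adjusted p = 0.0397). None of the 16 passed in Hyp minus WT, where their median was 0.10. There 1 (6.25%) had an unadjusted limma p under 0.05, against 4.41% of all features.

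The genes whose ratios followed Agt most closely were found by cosine similarity over the 10 arrays with an Agt value, among 8105 genes with a median of 0.02. It compares direction only and gives a small change the same weight as a large one. The 8 closest were Hoxd13 (0.92), Agap3 (0.90), Ereg (0.90), Padi6 (0.88), Pkd1l3 (0.88), Rbp4 (0.88), Foxp1 (0.87) and Utp23 (0.86). Their own changes were far smaller than that of Agt: Rbp4, the plasma retinol carrier, had the largest fitted differences, 0.55 ± 0.19 in Dil minus WT and 0.58 ± 0.18 log2 units in Hyp minus WT, and none of the 8 passed the test. Agtr2 stood at 0.63, the 305th of 8105, and Nppb at 0.54, the 622nd. For Agtr2, over 11 arrays, the 8 closest were Ogfrl1 (0.84), Mc4r (0.82), Kmt2c (0.82), Pi4ka (0.81), Htr1b (0.81), Ptpn11 (0.80), Otud7b (0.79) and Taf3 (0.78), and none of these passed either. The arrays share mice and slides, so these values describe the ratios and carry no test.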

How the data were processed

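Per the labels' protocols, total RNA of ventricles and septum was reverse transcribed from oligo(dT), 25 µg per dye, and hybridised to cDNA slides printed in 32 blocks. The data are log ratios of 17664 spots on 11 arrays that the authors deposited, with scanner, background correction and normalization not given in the sources used here. Values deposited by the authors were taken as log2 of Cy5 over Cy3 and ran from -3.64 to 5.12. Their log base and direction are not stated, and with natural logarithms every fold would be larger. Spots were named from the platform annotation of GEO, and spots of one gene were averaged.

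In the column of WT1 with Hyp1, 40 of 46 groups of 12 spots in a block stood 8 blocks from their place. At that displacement 24 of 24 blocks correlated best with the other arrays of set 1 (r 0.504 to 0.745, at most 0.219 elsewhere). These values were moved back (11520 spots), and 3840 spots have none there; the deposited value at the Agt spot belongs to another spot. No array has a value at the other Agt spot.

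For each of 12097 features (8106 genes and 3991 unnamed spots) with values on at least 9 arrays, Hyp, Dil and dye terms were fitted by generalised least squares. Mice were random effects with 1 shared variance ratio (0.303), followed by limma 3.58.1 moderation in R 4.3.3 and Benjamini-Hochberg adjustment over all features. The script was tested on simulated data. Carriers are the mean of the Hyp and Dil terms. Set values were taken by least squares within a set, without dye. Mice of one number share arrays; the labels do not say that a number marks a litter or batch. Each mouse is a separate animal, and spot brightness, which limits the precision of each ratio, was not used. Alternatives covered the displaced column, dye, mouse effects, array scale, missing values, direct arrays, pairing, moderation, single spots and arrays or sets left out. Genes named besides Agt and Agtr2 are all measured renin-angiotensin genes, the called genes of each other list (or the 2 of smallest p), the 8 most alike by cosine, and Nppb. The members and lists were chosen with earlier results of these data known.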

Additional observations from a re-analysis of the deposited data

Results flagged for a closer look

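Among 16 sets of 4 values examined, 2 had a value far from the others, and chance alone would set apart about 1 in 20. The Dil minus WT values of Agt were 2.61, 2.48, 1.63 and 2.63 log2 units in sets 1 to 4, with set 3 below the rest. The dye was not removed from these values. That of set 1 comes from a single array with Dil1 in Cy5. Less the dye term fitted for Agt, 0.46 in favour of Cy5, it would be lower and nearer to set 3, while the dye cancels in sets 2 to 4. Whether set 3 would then still be set apart was not tested. The Hyp minus WT values of Agtr2 were 0.02, 0.01, 0.01 and 0.15 log2 units, with set 4, at 0.153, above the rest. Both Agtr2 spots were positive on the array of Hyp4 with WT4, at 0.22 and 0.11. Neither pattern was tested further.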

How the results depend on the processing

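Agt kept a positive Dil minus WT difference under all 25 alternatives, between 1.62 and 2.46 log2 units, but passed the test under 11 of them. These 11 are not all separate checks. Requiring values on at least 6 arrays repeated the reported fit. Leaving out the array of WT1 with Hyp1 (2.13, limma adjusted p = 0.0422) was counted both by itself and among the left-out arrays. Neither that choice nor the use of single spots removed an Agt value. The call was lost with the displaced column as deposited (1.92), with arrays scaled to the same spread (1.62), with direct arrays only (2.45) and without moderation of the variances (2.15), and the cause was not tested beyond what these choices change. Left-out sets or arrays gave 1.86 to 2.46, with 5 of 15 passing, among them the array of WT1 with Hyp1, which holds no Agt value. With the set number as a replicate block, 1 value per set, Agt was 2.34 ± 0.18 (SE) and passed (limma adjusted p = 0.0370). Hyp minus WT of Agt passed under none of 25 alternatives (1.52 to 2.80), and carriers minus WT under 2 of 25, both with an array left out (1.69 to 2.63). Dil minus Hyp of Agt changed sign with scaled arrays (-0.21), with direct arrays (-0.0686) and with left-out arrays or sets (-0.34 to 0.35). Agt has no value where all 11 arrays are required. Agtr2 passed under no alternative; its sign turned with the block 23 spot alone in Hyp minus WT (-0.0125), Dil minus WT (-0.0701) and carriers minus WT (-0.0413), with the block 5 spot alone in Dil minus Hyp (0.0456), and with left-out arrays or sets in Dil minus Hyp (-0.0424 to 0.0367). The block 5 spot alone gave 0.16 in Dil minus WT, 0.12 in Hyp minus WT and 0.14 in carriers minus WT, none past the test. With arrays or sets left out, Agtr2 gave 0.02 to 0.07 in Dil minus WT, 0.02 to 0.07 in Hyp minus WT and 0.03 to 0.06 in carriers minus WT.

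Counts of called features moved more. Dil minus WT had 260, against 159 without the array of WT1 with Hyp1, 99 with scaled arrays, 4 with the replicate block, and 0 with direct arrays or without moderation. Dil minus Hyp had 20, against 41 with the column as deposited, 7 without that array, 43 without a dye term, 52 without mouse effects, and 0 with direct arrays, the replicate block or no moderation. Carriers minus WT had 1, against 0 as deposited, scaled or without moderation, 12 without a dye term, 24 without mouse effects, 15 with values on all 11 arrays, 9 with direct arrays and 5 with the replicate block. With arrays or sets left out, the counts ran from 0 to 448, 0 to 49 and 0 to 28. The list counts were put through the same alternatives after seeing the data: that of renin-angiotensin genes called in Dil minus WT ran from 0 to 2 over 25 alternatives, that of type 1 receptor coupling genes from 0 to 6 and that of textbook targets from 0 to 3.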

Other observations

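Nfatc4, singled out after its values were seen, had the 2nd lowest cosine to Agt of 8105 genes (-0.90 over 10 arrays). Its Hyp over WT ratios were -0.28, -0.0030 and -0.996 log2 units in sets 2, 3 and 4, where those of Agt were 1.83, -0.24 and 3.60. Its Dil over WT ratios were -0.49, -0.47 and -0.58 in sets 1, 3 and 4. The Dil over Hyp ratios were less opposed: 0.02, -0.57, -0.29 and -0.24 in sets 1 to 4 for Nfatc4, beside -0.86, 0.64, 0.58 and -0.64 for Agt, with both negative in set 4. Cinp was the most opposed gene (cosine -0.93), with fitted differences of -0.21 ± 0.06 in Dil minus WT and -0.18 ± 0.06 in Hyp minus WT (SE), neither of which passed the test.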
